A study of Mus musculus with 6 samples.

Results

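The genes of the CRH and PACAP stress peptide systems were examined in the forebrain of mice labelled water avoidance stress (WAS) and of mice labelled control. The 6 genes were chosen by name and are the ligands Crh and Adcyap1, the binding protein gene Crhbp, and the receptor genes Crhr1, Crhr2 and Adcyap1r1, out of 23282 entries named by gene symbol. Adult male C57BL/6J mice with no genetic change stood for 1 h on a small platform, which was surrounded by water for the 3 mice labelled WAS and stood in a dry basin for the 3 mice labelled control. Each library held the RNA of 1 hemisphere of 1 mouse, taken directly after the hour, with the olfactory bulbs and the cerebellum removed. The whole hemisphere was extracted, so that a change within a small nucleus is diluted by the rest of the tissue, and fewer cells of a type and less RNA per cell cannot be told apart.

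Corticotropin-releasing hormone (CRH) is a peptide released by neurons of the paraventricular hypothalamus to drive the pituitary-adrenal stress axis, and it is also made by cortical interneurons and by neurons of the central amygdala. It acts through CRHR1, while CRHR2 mainly answers to the urocortins, and the CRH binding protein holds CRH and urocortin away from both receptors. PACAP, the product of Adcyap1, acts through the PAC1 receptor encoded by Adcyap1r1 and shares the receptors VPAC1 and VPAC2 (Vipr1 and Vipr2) with the vasoactive intestinal peptide VIP. All of these receptors couple to Gs and raise cAMP, and PACAP input is known to drive CRH neurons under stress.

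For none of the 6 genes was a difference between the groups detected beyond the spread between libraries. In edgeR's quasi-likelihood test all 6 genes were tested, 0 met an adjusted p of 0.05 and 0 met the fold criterion, a change of 1.5-fold or more together with an unadjusted p under 0.05. Over all 15239 genes tested, 0% met the first and 2.49% the second, 1.82% being higher and 0.676% lower under the label WAS. At an unadjusted p under 0.05 the count was 0 of the 6 genes against 7.24% of all genes (3.85% higher and 3.4% lower). It was 1 gene in DESeq2, against 5.82% of all genes, and 0 genes in limma, against 6.98%. Over 15 alternatives this count lay between 0 and 2, and the genes were Adcyap1r1 and Crhr1. The share of all genes ran from 4.09% to 13.7%. It was 9.37% in the fit that gave 2 genes, with the replicate number as a block. The lowest adjusted p among the 6 genes was 0.688. For 0 of the 6 genes did the libraries of one group all lie outside the range of the other, which held for 12.2% of all genes tested (WAS above in 8.42% and below in 3.76%). The log2 fold changes of the libraries labelled WAS over those labelled control were above 0 for 2 of the 6 genes, with a median of -0.076 against 0.00088 over all genes.

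The libraries held between 9248520 and 10502029 counts, and the 6 genes took between 1730 and 2396 of them. Levels are given as CPM, the usual scaling of a count to its library total, and are set side by side only within a gene. The count columns are headed WC in the libraries labelled WAS and WS in those labelled control, and if these headings name the groups, each direction given here turns around. Libraries of 1 label differed in tissue content. The summed striatal markers lay at 129 and 290 CPM in WAS replicates 1 and 3 and between 775 and 1553 CPM in the other libraries, while the summed thalamic and habenular markers were at 477 and 376 CPM in WAS replicates 1 and 3 and between 88.6 and 119 CPM in the others. The choroid plexus markers summed to 54.7 CPM in WAS replicate 1 and 17.7 CPM in control replicate 2, against 940 to 1254 CPM elsewhere. Some genes were at 0 beside abundant partners from the same tissue, such as the dopamine receptor gene Drd2 with 1 count in 1 library against 350 to 3380 counts of Drd1, so that a count near 0 in these tables is not read as absence of the transcript.

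Crh, on chromosome 3 at 19693401-19695396 of the minus strand (GRCm38, also called mm10), was steady. WAS replicates 1, 2 and 3 held 218, 237 and 191 counts, and control replicates 1, 2 and 3 held 244, 223 and 213. Both the highest level, 25.6 CPM in WAS replicate 2, and the lowest, 19.1 CPM in WAS replicate 3, were in libraries labelled WAS, and the 3 control libraries lay between them. The group means were 22.1 ± 3.27 CPM (SD, n = 3) for the label WAS and 22.0 ± 1.05 CPM (SD, n = 3) for the label control. The difference on the log2 scale, WAS over control, was -0.030 ± 0.14 (SE; edgeR, adjusted p = 0.979), its sign turned around to 0.0062 with scaling by library total, and its 95% interval ran from a fold of 0.793 to 1.21. A change of 1.5-fold in either direction lies outside this interval. Counting error alone gives Crh a coefficient of variation of 6.72% per library, and the coefficient within groups was 11%.

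Among hypothalamic genes, Oxt varied far more between libraries than Crh. Oxt, the oxytocin gene of the paraventricular and supraoptic nuclei, stood at 10.4, 14.1 and 3.31 CPM in WAS replicates 1, 2 and 3 and at 0.571, 0.289 and 44.6 CPM in control replicates 1, 2 and 3. The level of Crh in control replicate 3, 21.3 CPM, was next to that in control replicate 2, 21.5 CPM, although these libraries held the highest and the lowest level of Oxt. The 11 hypothalamic markers summed to 8.41 to 19.8 CPM in the libraries labelled WAS and to 2.02 to 51.8 CPM in those labelled control, 4 of them passed the filter on low counts, and Otp was at 0 in every library. Oxt made up most of the sum in the libraries where it was high, and Pmch, a gene of lateral hypothalamic neurons, followed another order, from 0.541 CPM in WAS replicate 2 to 1.8 CPM in WAS replicate 3. The part of Crh RNA that comes from the paraventricular nucleus was not measured apart from that of cortex and amygdala.

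**Figure D1:**
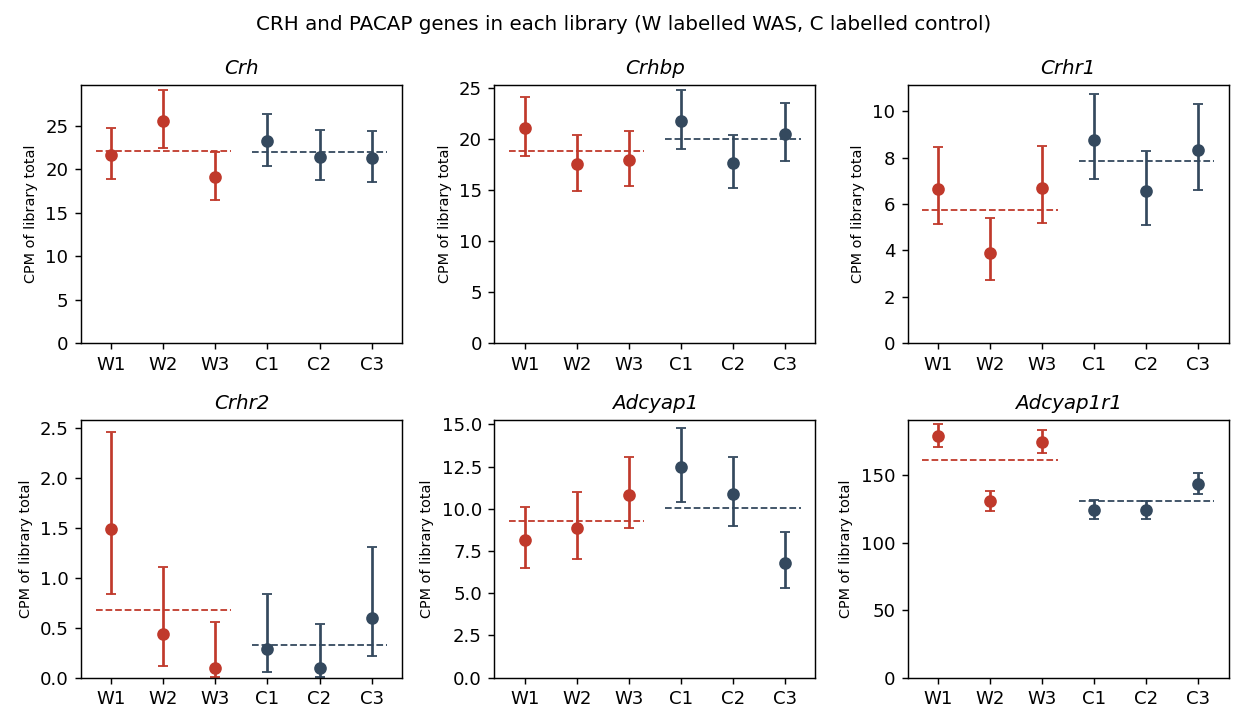
Level of each of the 6 genes in each library, in CPM of the library total on a linear axis from 0. Points are libraries (red, labelled WAS; dark, labelled control), bars are exact Poisson 95% intervals for counting error only, and dashed lines are group means. Adcyap1r1 is high in WAS replicates 1 and 3 (179 and 175 CPM), Crhr1 is low in WAS replicate 2 (3.89 CPM), and the groups overlap for every gene.

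Crhbp, whose secreted product binds CRH, lies on chromosome 13 at 95431371-95444924 of the minus strand. Its counts were 212, 162 and 179 in the WAS replicates and 229, 183 and 205 in the control replicates. Levels of 17.5 to 21.1 CPM under the label WAS overlapped with 17.6 to 21.8 CPM under the label control. The means were 18.8 ± 1.94 CPM (SD, n = 3) and 19.99 ± 2.14 CPM (SD, n = 3), a log2 difference of -0.12 ± 0.14 (SE; edgeR, adjusted p = 0.921), with a 95% interval of 0.741 to 1.14 on the fold scale. The ratio of Crh to Crhbp counts within a library, which does not depend on scaling, was 1.03, 1.46 and 1.07 in the WAS replicates and 1.07, 1.22 and 1.04 in the control replicates. Only WAS replicate 2, with the most Crh and the least Crhbp of the 6 libraries, stood above the range of the control libraries.

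Crhr1, on chromosome 11 at 104132855-104175523 of the plus strand, encodes the main receptor for CRH in cortex and pituitary. It was counted 67, 36 and 67 times in WAS replicates 1, 2 and 3 and 92, 68 and 83 times in control replicates 1, 2 and 3. The level of WAS replicate 2, 3.89 CPM, was the lowest of the 6, and those of WAS replicates 1 and 3, 6.66 and 6.71 CPM, lay just above control replicate 2 at 6.55 CPM, so that the groups overlapped. The means were 5.75 ± 1.61 CPM (SD, n = 3) for the label WAS and 7.88 ± 1.17 CPM (SD, n = 3) for the label control. The log2 difference was -0.49 ± 0.25 (SE; edgeR, unadjusted p = 0.0823 and adjusted p = 0.731). It was -0.27 without WAS replicate 2 and -1.05 with WAS replicate 2 as the only library of its label, a fit with unadjusted p = 0.00712 and adjusted p = 0.770 which assumes that the lone library varies like the controls. The exact Poisson 95% interval of WAS replicate 2, 2.73 to 5.39 CPM, ended below the level of each other library. The markers of cortex summed to 728 to 781 CPM in the 3 libraries labelled WAS and to 832 to 947 CPM in the control libraries, with no overlap, and the cortex markers of WAS replicate 2, at 781 CPM, were the highest of its group. Their part in the level of Crhr1 was not tested.

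Crhr2, on chromosome 6 at 55090049-55133016 of the minus strand, is the receptor for the urocortins and is found in few places in mouse forebrain, such as the lateral septum and the ventromedial hypothalamus. It was close to the detection limit, with 15, 4 and 1 counts in the WAS replicates and 3, 1 and 6 counts in the control replicates. Of these 30 counts, 15 came from WAS replicate 1. Its level was 1.49 CPM in WAS replicate 1 and between 0.0963 and 0.601 CPM in the other libraries. The limit used here for a count of 0, which is 3 counts, corresponds to 0.286 to 0.324 CPM. The group means were 0.674 ± 0.726 CPM (SD, n = 3) for the label WAS and 0.328 ± 0.255 CPM (SD, n = 3) for the label control. The log2 difference of 1.00 ± 0.91 (SE; edgeR, adjusted p = 0.892) was -0.34 without WAS replicate 1. The 95% interval, a fold of 0.497 to 8.0, was the widest of the 6 genes.

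The urocortins were too sparse for the test. Ucn, the urocortin gene expressed in the Edinger-Westphal nucleus of the midbrain, had 0, 2 and 9 counts in the WAS replicates and 0, 4 and 0 counts in the control replicates. The library with 9 counts, WAS replicate 3, also held the most midbrain and raphe markers, at 119 CPM in sum against 22.1 to 59.7 CPM in the other libraries. The next libraries did not follow, since control replicate 2, with 4 counts of Ucn, had the lowest sum and WAS replicate 1, with 0 counts, the second highest. Ucn2 had 2, 6 and 0 counts under the label WAS and 2, 2 and 1 counts under the label control, and Ucn3 had 1 count in WAS replicate 2 and 0 in the 5 others. These 3 genes did not pass the filter on low counts, had adjusted p from 0.879 to 0.940 in an edgeR fit without that filter, and 4 of the 7 genes of the CRH family were tested.

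Adcyap1, on chromosome 17 at 93199017-93206537 of the plus strand, encodes the precursor of PACAP. It was counted 82, 82 and 108 times in the WAS replicates and 131, 113 and 68 times in the control replicates. The control libraries held both the highest level, 12.5 CPM in control replicate 1, and the lowest, 6.82 CPM in control replicate 3, and the WAS libraries lay between them at 8.15 to 10.8 CPM. The means were 9.28 ± 1.38 CPM (SD, n = 3) for the label WAS and 10.1 ± 2.92 CPM (SD, n = 3) for the label control. The log2 difference was -0.15 ± 0.23 (SE; edgeR, adjusted p = 0.946), with a 95% interval of 0.630 to 1.28 on the fold scale. The coefficient of variation within groups was 23.6%, against 10.2% from counting error.

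The promoters of the peptide genes are shown because cAMP, which both receptor families raise, acts on many neuropeptide genes through the cAMP response element. The full palindrome TGACGTCA and its core TGACG were searched on both strands in the RefSeq promoters of build GRCm38.p6, from 250 bases before to 50 bases after each start. Of the 6 genes, 5 had an entry and Crh did not. The full palindrome was in 0 of these 5 genes and in 2.03% of all 27025 genes with a promoter, and the core, which is also part of the palindrome, was in 2 of the 5 genes and in 23% of all genes. Counted by promoter, the shares were 1.79% and 20.8% of 32851. The 250 bases before the start of these 2 genes, chr17:93198767-93199016 on the plus strand for Adcyap1 and chr13:95444832-95445081 on the minus strand for Crhbp, are given 5′ to 3′ on the strand of the gene with the core or its reverse complement in capitals.
Adcyap1: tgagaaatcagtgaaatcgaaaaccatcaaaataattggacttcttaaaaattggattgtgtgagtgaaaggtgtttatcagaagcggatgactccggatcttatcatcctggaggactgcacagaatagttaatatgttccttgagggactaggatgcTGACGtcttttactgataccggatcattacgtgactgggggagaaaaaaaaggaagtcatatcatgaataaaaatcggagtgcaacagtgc
Crhbp: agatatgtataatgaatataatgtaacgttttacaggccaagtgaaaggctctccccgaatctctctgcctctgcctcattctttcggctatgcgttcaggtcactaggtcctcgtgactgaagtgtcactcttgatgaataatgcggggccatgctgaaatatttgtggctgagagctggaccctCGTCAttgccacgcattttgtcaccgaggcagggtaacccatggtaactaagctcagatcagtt
In these letters the core starts 91 bases before the RefSeq start of Adcyap1 and 64 bases before that of Crhbp. The RefSeq start used for Crhbp lies inside the gene span given above, which reaches 95444924. The core and part of the bases printed for Crhbp therefore fall within that span. A match is a description of the sequence, not a binding site.

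Adcyap1r1, on chromosome 6 at 55451978-55501451 of the plus strand, encodes PAC1, the receptor selective for PACAP, and came closest to a group difference among the 6 genes. It was counted 1802, 1209 and 1744 times in WAS replicates 1, 2 and 3 and 1306, 1286 and 1433 times in control replicates 1, 2 and 3. WAS replicates 1 and 3, at 179 and 175 CPM, were above every control library, and WAS replicate 2, at 131 CPM, lay inside the control range of 124 to 144 CPM. The means were 161 ± 26.7 CPM (SD, n = 3) for the label WAS and 131 ± 11.3 CPM (SD, n = 3) for the label control. The log2 difference was 0.27 ± 0.12 (SE; edgeR, unadjusted p = 0.0514 and adjusted p = 0.688), and its 95% interval, a fold of 0.999 to 1.45, ended under a fold change of 1.5. Counting error gives only 2.61% of variation for this gene, and the variation within groups was 14%.

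The 2 libraries that were high in Adcyap1r1 were the ones with little striatal and much thalamic and midbrain RNA. Without WAS replicate 2 the log2 fold change was 0.40 (adjusted p = 0.0334 by edgeR), and with WAS replicates 1 and 3 both left out it was -0.039 (adjusted p = 0.992), where the lone WAS library is assumed to vary like the controls. The unadjusted p was under 0.05 in DESeq2 (0.0430), with scaling by library total (0.0282), with no filter on low counts (0.0384), with the replicate number as a block (0.0218), without control replicate 3 (0.0284) and without WAS replicate 2 (0.000898). Across the alternatives, Adcyap1r1 had adjusted p from 0.0334 to 0.9998. Of the 8 thalamic and habenular markers, 7 were tested and 4 had an unadjusted p under 0.05, all 4 higher under the label WAS, against 3.85% of all genes higher. In sum they lay at 115 to 477 CPM under the label WAS and at 88.6 to 119 CPM under the label control. Of the 7 striatal markers, 6 were tested, 0 of these had an unadjusted p under 0.05 with all libraries, and 6 had one, all lower, without WAS replicate 2, a fit in which 7.13% of all genes were lower and 6.59% higher at this p and 3.18% passed an adjusted p of 0.05. Among astrocyte markers, Gfap stood at 89.0, 44.5 and 92.3 CPM in WAS replicates 1, 2 and 3 and at 36.5 to 60.2 CPM in the controls, and Aqp4 at 111, 80.1 and 105 CPM against 68.5 to 87.2 CPM. The other 2 astrocyte markers did not follow, with Slc1a3 at 465, 557 and 540 CPM against 521 to 573 CPM and Aldh1l1 at a log2 difference of -0.0013. Without WAS replicate 2, 2 of the 4 astrocyte markers passed an adjusted p of 0.05 in edgeR's test. The part of tissue and cell content in the level of Adcyap1r1 was not tested.

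**Figure D2:**
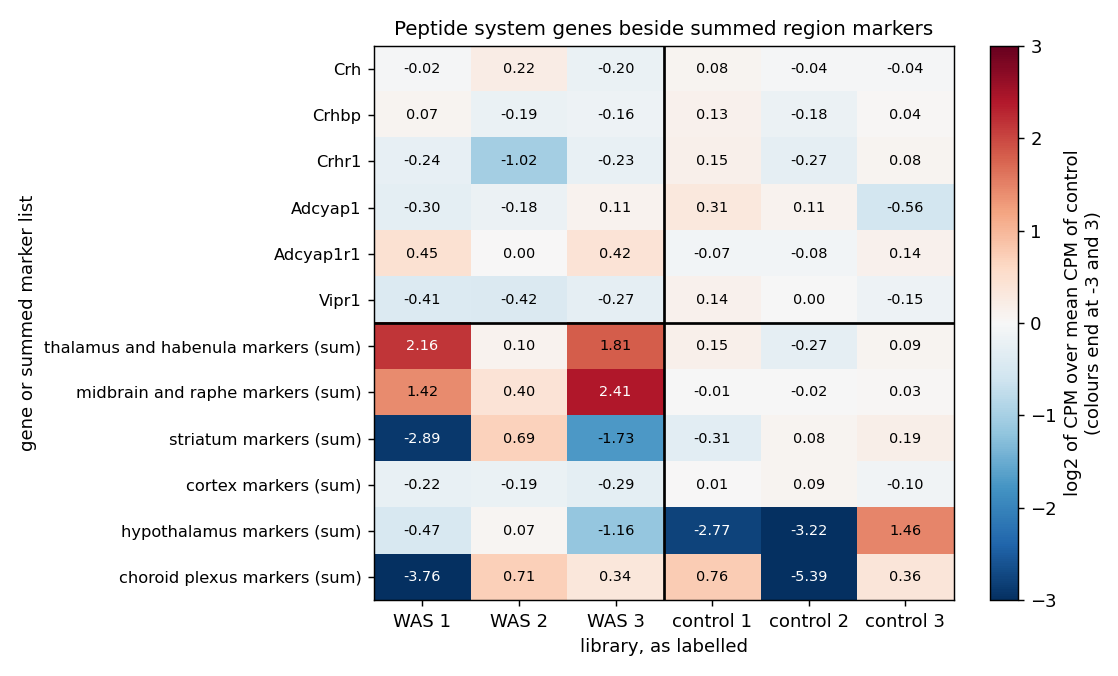
Log2 of the CPM in each library over the mean CPM of the 3 libraries labelled control, for 6 genes of the peptide systems (above the line) and for summed marker lists of brain regions (below it). Numbers in the cells are the values plotted. Adcyap1r1 stands at 0.45 and 0.42 in WAS replicates 1 and 3, where thalamic and habenular markers stand at 2.16 and 1.81 and striatal markers at -2.89 and -1.73.

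Of the PACAP and VIP family, 4 of 5 genes were tested and Vipr1 alone had an unadjusted p under 0.05, against 7.24% of all genes (3.4% lower). Vipr1, the gene of the receptor VPAC1 that binds PACAP and VIP, was counted 162, 148 and 177 times in the WAS replicates and 248, 222 and 193 times in the control replicates. The highest library labelled WAS, at 17.7 CPM, lay below the lowest control library, at 19.3 CPM, as was so for 3.76% of all genes. The means were 16.6 ± 0.972 CPM (SD, n = 3) for the label WAS and 21.4 ± 2.14 CPM (SD, n = 3) for the label control. The log2 difference was -0.40 ± 0.13 (SE; edgeR, unadjusted p = 0.0113 and adjusted p = 0.582), and leaving out any 1 library gave values from -0.47 to -0.34, with adjusted p from 0.286 to 0.9998 over all alternatives. An exact permutation test of the CPM gave a two-sided p of 0.1, the smallest that 20 splits of 3 libraries against 3 can give. The cortex markers, of which 7 of 7 were tested and 3 had an unadjusted p under 0.05, all lower under the label WAS, also did not overlap between the groups, and their part in the level of Vipr1 was not tested.

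Vip, which encodes a relative of PACAP made by cortical interneurons, was at 17.5 to 19.2 CPM under the label WAS and at 17.4 to 24.5 CPM under the label control. It differed by -0.24 ± 0.15 (SE; edgeR, adjusted p = 0.785) on the log2 scale. Vipr2, the VPAC2 gene, had 10, 1 and 4 counts in the WAS replicates and 2, 1 and 0 counts in the control replicates and did not pass the filter on low counts (adjusted p = 0.777 in edgeR without it). It shares its place in the genome with the antisense gene Gm20658 on the opposite strand. No other gene of either family overlapped an annotated gene, and none shared a stretch of 50 bases in the last 500 bases of its longest transcript with another gene.

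**Figure D3:**
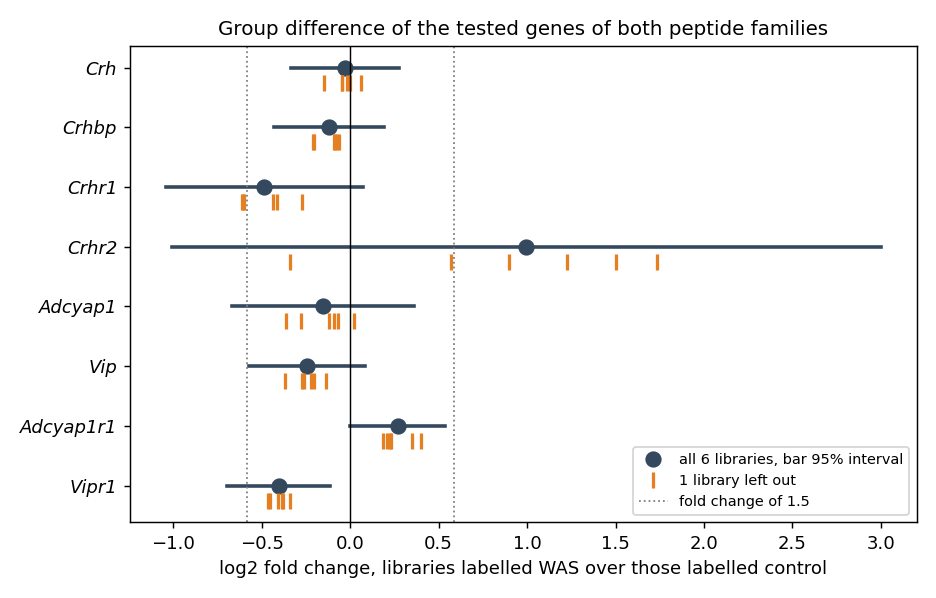
Log2 fold change of the libraries labelled WAS over those labelled control for the 8 tested genes of both peptide families. Points are from all 6 libraries with bars for the 95% interval of edgeR's quasi-likelihood fit, orange ticks are the fits with 1 library left out, and dotted lines mark a fold change of 1.5. The interval of Vipr1 alone lies on 1 side of 0, and that of Crhr2 is the widest, from -1.01 to 3.00.

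Downstream of both receptor families, 28 genes of cAMP signalling were all tested, 12 with a log2 fold change above 0 and a median of -0.073. None passed an adjusted p of 0.05 in edgeR's test, and 3 had an unadjusted p under 0.05, all 3 lower under the label WAS, where 3.4% of all genes were lower and 7.24% differed either way at this p. With WAS replicates 1 and 3 left out, 3 genes were higher and 2 lower, where 2.51% and 2.88% of all genes were. The 3 genes of the whole set of libraries were the adenylyl cyclase genes Adcy1 (log2 fold change -0.27, standard error 0.11) and Adcy2 (-0.32, standard error 0.098) and the regulatory subunit gene of protein kinase A Prkar1b (-0.28, standard error 0.083). The levels of Adcy2 were 56.7 CPM on average under the label WAS and 68.7 CPM under the label control. The libraries did not overlap for 5 of the 28 genes, against 12.2% of all genes, with WAS below for Adcy2 and Prkar1b and above for Prkaca, Rapgef3 and Crtc3. The most abundant genes of the list were Gnas, which encodes Gs and stood at 0.025 (standard error 0.082), and Prkar1a at 0.064 (standard error 0.084). None met the fold criterion, against 2.49% of all genes. Without WAS replicate 2, 3 of the 28 were higher and 6 lower at an unadjusted p under 0.05, where 6.59% of all genes were higher and 7.13% lower. In this fit 2 of the 28 met the fold criterion, against 831 of all 15239 genes. An adjusted p of 0.05 was passed by 2 of the 28, against 3.18% of all genes.

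Of 15 genes known to be induced by cAMP and CREB in neurons, all were tested, 7 lay above 0 on the log2 scale, and their median was -0.0023. Fos, Junb and Nr4a2 were higher and Egr1 was lower under the label WAS at an unadjusted p under 0.05, and 0 passed an adjusted p of 0.05 in edgeR's test. Of all genes, 3.85% were higher and 3.4% lower at this p. Egr1 had the highest counts of the list, 4557, 4041 and 4996 in the WAS replicates against 6332, 6993 and 5355 in the control replicates, a log2 difference of -0.42 ± 0.097 (SE; edgeR, adjusted p = 0.477). Nr4a2, an orphan nuclear receptor gene, met the fold criterion at 0.65 (standard error 0.20, adjusted p = 0.539). WAS replicates 1 and 3, the highest in Adcyap1r1, were also the highest here, with 2901 and 2797 counts. WAS replicate 2 held 1338 counts and the controls 1450 to 1592. The midbrain and raphe markers summed to 59.7 and 119 CPM in WAS replicates 1 and 3, 29.5 CPM in WAS replicate 2 and 22.1 to 22.9 CPM in the controls. Of these 7 markers, 5 were tested and Ddc, Slc6a3 and Th met the fold criterion. All 3 were higher under the label WAS, against 1.82% of all genes. Their part in the level of Nr4a2 was not tested. Without WAS replicate 2 the median of the 15 genes induced by cAMP was 0.18. At an unadjusted p under 0.05, 6 of the 15 were higher and 1 lower, and 2 passed an adjusted p of 0.05. In this fit 6.59% of all genes were higher and 7.13% lower, and 3.18% passed. With WAS replicates 1 and 3 left out, which leaves 1 WAS library, the median was -0.071, with 0 higher and 2 lower, against 2.51% and 2.88% of all genes.

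In the list of corticosteroid receptors and glucocorticoid-induced genes, 8 of 8 were tested and 0 had an unadjusted p under 0.05 in edgeR's test, with a median of 0.044. The libraries did not overlap for 1 of the 8 genes, a share near the 12.2% of all genes, and this was Nr3c1, the gene of the glucocorticoid receptor, at 77.7 to 95.2 CPM under the label WAS and 97.1 to 105 CPM under the label control (log2 difference -0.22 ± 0.098, SE; edgeR, unadjusted p = 0.0501 and adjusted p = 0.686). Sgk1 stood at 0.029 (standard error 0.086) and Tsc22d3, which encodes the glucocorticoid-induced leucine zipper, at 0.16 (standard error 0.11). Of 12 genes of peptide processing and dense-core vesicles, all were tested, 5 were above 0, the median was -0.036 and 1 had an unadjusted p under 0.05, a share near the 7.24% of all genes. This was Pcsk2, a convertase that cleaves peptide precursors at the sites of basic residues, at 221 CPM on average under the label WAS and 269 CPM under the label control (log2 difference -0.32 ± 0.14, SE; edgeR, adjusted p = 0.681). The carboxypeptidase gene Cpe stood at 0.15 (standard error 0.087) and Chgb at -0.16 (standard error 0.088). Neither list had a gene past an adjusted p of 0.05 or past the fold criterion with all libraries. Without WAS replicate 2, where 3.18% of all genes passed an adjusted p of 0.05, 1 gene of peptide processing and 0 of the glucocorticoid list passed. At an unadjusted p under 0.05, 3 genes of peptide processing were higher and 2 lower. The glucocorticoid list had 0 higher and 1 lower at this p, where 6.59% of all genes were higher and 7.13% lower.

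**Figure D4:**
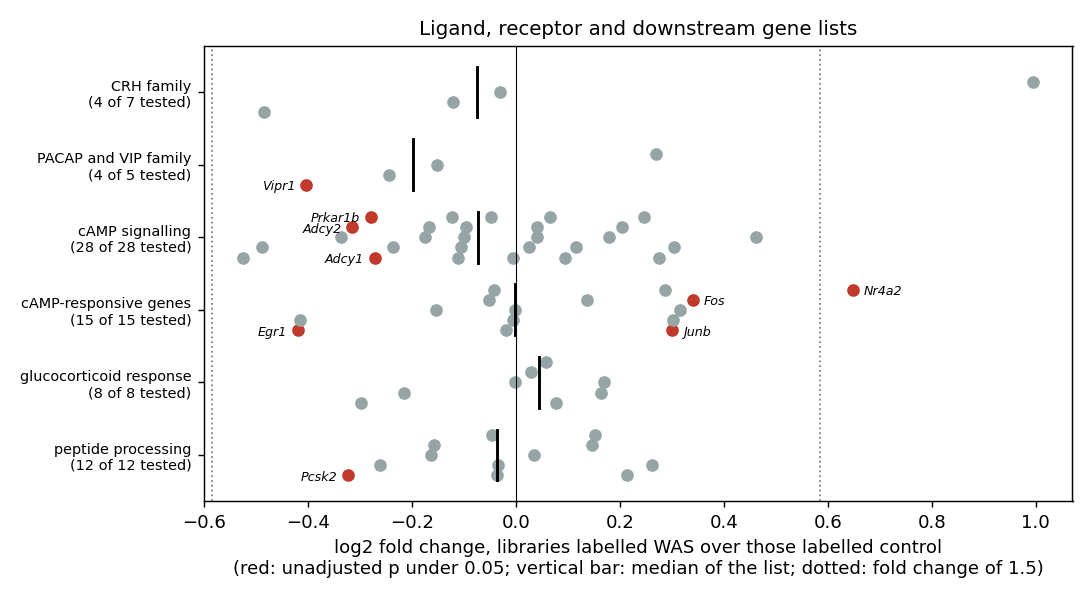
Log2 fold change of the tested genes in 6 lists, each point a gene, with the median of the list as a vertical bar, genes with an unadjusted p under 0.05 in red and a fold change of 1.5 as dotted lines. The medians lie between -0.20 for the PACAP and VIP family and 0.044 for the glucocorticoid response, and Nr4a2 is the only red point past a fold change of 1.5.

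Other cell types and regions were read from their markers. Glial and vascular markers overlapped between the labels, with summed levels of 675 to 747 CPM against 638 to 708 CPM for 4 astrocyte markers, 4765 to 6821 CPM against 5079 to 5998 CPM for 4 oligodendrocyte markers, 235 to 279 CPM against 243 to 281 CPM for 4 microglial markers and 62.4 to 64.9 CPM against 58.5 to 72.9 CPM for 4 endothelial markers. Among these, Aqp4 had an unadjusted p under 0.05 in edgeR's test. The 11 GABAergic interneuron markers, which include cells that make Crh and Crhbp in cortex, summed to 1027 to 1282 CPM against 1086 to 1124 CPM, with a median log2 fold change of -0.0064. Of the 11, Calb2, Htr3a and Adarb2 were higher under the label WAS at an unadjusted p under 0.05, against 3.85% of all genes, and Calb2 and Htr3a met the fold criterion, against 1.82% higher. Sst, a marker of interneurons many of which carry Crhbp, was at 300 CPM on average under the label WAS and 293 CPM under the label control.

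Pituitary markers, of which 2 of 8 were tested, summed to 1.8 to 9.34 CPM under the label WAS and to 1.30 to 2.29 CPM under the label control, with Fshb at 0 in every library and 45 of the 51 counts of the growth hormone gene Gh in WAS replicate 1. That library also held the most Crhr2 counts. Markers of cerebellum and olfactory bulb, the regions removed at dissection, summed to 35.6 to 43.6 CPM against 26.9 to 41.0 CPM. The 7 choroid plexus markers were all tested and 0 had an unadjusted p under 0.05 in edgeR's test. With WAS replicate 1 and control replicate 2 left out, the libraries with few choroid plexus markers, the log2 fold changes were -0.036 for Crh, -0.0087 for Adcyap1 and 0.15 for Adcyap1r1, and Crhr1 stood at -0.72 with an unadjusted p of 0.0431 and an adjusted p of 0.975 by edgeR.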

How the data were processed

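The authors sequenced 1 QuantSeq 3′ mRNA-Seq library per mouse (single-end reads, Bowtie2, with unique and multiple alignments counted by Bedtools), and deposited raw read counts per gene symbol, for which the submitters' processing notes name build mm10. Their quantile normalization is not in these counts. Versions of the aligner and counter are not given in the sources used here. No source used here names molecular identifiers, and Poisson intervals cover counting error only.

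Groups were taken from the sample labels. Counts were scaled with TMM (factors between 0.976 and 1.01) and compared by quasi-likelihood (edgeR 4.0.16, R 4.3.3) over the 15239 genes with a mean log2(quantile-normalized count + 1) of at least 2, with Benjamini-Hochberg adjustment over all of them. Standard errors came from dividing each log2 difference by √F. The test was first run on simulated counts with known changes. No pair of libraries agreed within sampling noise (chi-square per degree of freedom of at least 4.79).

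The genes, lists and tests were chosen with earlier results of these data known. Genes named are the 6 genes, the other genes of both families, from the pathway lists the 2 genes with the highest levels and any past the fold criterion, and for each of the 6 genes the 3 with the highest correlation. Genes with an unadjusted p under 0.05 and markers that stood beside a result were named after their values were seen, and not every marker the rule gives is reported. DESeq2 1.42.0, limma 3.58.1, library-total scaling, 3 other filters, a block for the replicate number, and fits that omit 1 library were the alternatives. Positions and overlaps are from GENCODE M21 (GRCm38).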

Additional observations from a re-analysis of the deposited data

How the results depend on the processing

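Over 13 other settings chosen at the outset, 71 of 76 log2 fold changes of the 6 genes kept their sign and stayed on the same side of the fold criterion, and 5 changed sign. Crh turned to 0.0062 with scaling by library total, and with each library left out it ran from -0.15 to 0.064, Crhr2 from -0.34 to 1.73 and Adcyap1 from -0.36 to 0.021. Chosen after seeing the data, leaving out WAS replicates 1 and 3 together gave 0.18 for Crh, -0.039 for Adcyap1r1 and -1.05 for Crhr1, and leaving out WAS replicate 1 and control replicate 2 gave -0.77 for Crhr2 and -0.72 for Crhr1. The fit without WAS replicate 1 and control replicate 2 put 1 of the 6 genes, Crhr1, past the fold criterion, and 262 of all 15239 genes. The count of the 6 genes past an adjusted p of 0.05 ran from 0 to 1 with each library left out, the 1 being Adcyap1r1 without WAS replicate 2. The cause was not tested.

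Over all genes, 380 met the fold criterion, with 261 to 831 when each library was left out. Past an adjusted p of 0.05 were 0 genes, 22 with DESeq2, 0 to 484 with each library left out (484 without WAS replicate 2) and 1 with WAS replicates 1 and 3 left out. With the replicate number as a block, 49 genes passed and 417 met the fold criterion. The deviations of same-numbered libraries correlated at 0.066, 0.085 and 0.087 over genes, below what was asked for pairing, although each library correlated best with its own number. Under this block Crhr1 stood at -0.51 and Adcyap1r1 at 0.26, with unadjusted p of 0.0440 and 0.0218 and adjusted p of 0.511 and 0.415 by edgeR. Crhr2 gave no value under filterByExpr or the minimum of 1 CPM, and Ucn, Ucn2, Ucn3 and Vipr2 entered only the fit without a filter. Within-group variation exceeded counting error for Crhr2 (109% against 44.6%) as for Adcyap1r1 (14% against 2.61%), and at 1 to 15 counts a library the counting error of Crhr2 is itself large.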

Other observations

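The genes whose log2 CPM followed each of the 6 genes most closely over the 6 libraries were looked up among 9400 genes with a mean of at least 10 CPM, as a description without a test, since libraries share depth and tissue content and the best of many genes is always close. For Adcyap1r1 these were Lsm3, Acot7 and Ip6k1 (Pearson's r from 0.990 to 0.994), and 273 genes lay above 0.9, against 47 to 78 genes for each of the other 5. For Crh they were Scn2b, Gys1 and Kcnt1, and for Crhbp Gpha2, Ppp2r5b and Arhgef1. For Crhr1 they were Etv6, Mcoln1 and Nim1k, for Crhr2 Cox6c, Ggnbp2 and Lemd2, and for Adcyap1 Dscam, Adck3 and Klf15. None of the 18 genes had an unadjusted p under 0.05 for the group difference in edgeR's test.

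The ratio of Adcyap1 to Adcyap1r1 counts within a library lay between 0.0455 and 0.0678 under the label WAS and between 0.0475 and 0.10 under the label control, so that the libraries overlapped. The ratio of Vip to Adcyap1 counts lay between 1.78 and 2.33 under the label WAS and between 1.8 and 2.56 under the label control. Vip and Vipr1 each held 1 match to the core TGACG in the promoter window, and Ucn held the full palindrome 44 bases before its start.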
